A study of Homo sapiens with 3 samples.

Results

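RNA editing was followed in 9 genes with alternative exons known to be regulated by RBFOX proteins: ENAH, EPB41, EPB41L1, EPB41L2, CTNND1, MAP3K7, ECT2, CLSTN1 and TSC2. The list was drawn up with earlier results of these data known, although its rule uses gene names alone, and every cluster of editing whose deposited annotation names one of them was kept. They held 70 of the 40843 clusters called over 3 replicates, namely 21, 29 and 20 in replicates 1, 2 and 3. The samples are 3 biological replicates of 1 condition, the Lenti-X derivative (HEK293XT) of the human embryonic kidney line HEK293T, labelled wild-type in genotype. The cells carried RBFOX2 fused to the cytidine deaminase APOBEC1, which doxycycline induced for 72 h. The labels give transient transfection as the treatment, while the growth protocol speaks of stable lines, and the molecule is given as polyA RNA. The fusion is expressed beside the RBFOX2 of the cells themselves. Cells without it were not analysed here, so no background level of editing is given.

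RBFOX2 is a splicing regulator that recognises the RNA motif GCAUG. As a rule it favours inclusion of an alternative exon when bound in the intron downstream of it, and skipping when bound upstream. Many of its exons lie in genes of the cytoskeleton, of cell adhesion and of cell polarity. In the STAMP assay, the deaminase changes cytosines close to the binding sites of its fusion partner to uracil, which sequencing reads as C to T. A cluster is a stretch of RNA, built from windows of 30 bases, in which editing exceeded a modelled background. Its edit fraction is the number of edited bases over the number of C bases that reads cover in it.

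Per replicate, the target genes held 23.3 ± 4.93 clusters (SD, n = 3), or 0.171% ± 0.0224 of all clusters. The clusters contained 269 edited bases on 157 edited reads, and 0.0938%, 0.0923% and 0.0920% of all edited bases in replicates 1, 2 and 3. Editing was found in 8 of the 9 genes, and in 7 of them in each replicate. TSC2, whose product tuberin restrains the growth kinase complex mTORC1, held no cluster in any replicate. CLSTN1 held clusters in replicates 2 and 3 but none in replicate 1. Because only windows past the authors' threshold were listed, a gene without clusters is not shown to be unedited or unexpressed, and fewer transcripts and less editing per transcript cannot be told apart.

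CTNND1 encodes p120 catenin, which binds the cytoplasmic tail of cadherins, and it had the most clusters of the list. It held 4, 9 and 3 clusters in replicates 1, 2 and 3. Replicate 2 was highest, and the gene had 90 edited bases on 48 edited reads over the 3 replicates. Counting all 9904 gene names with a cluster, 312 had at least as many as its total of 16. ENAH, which encodes the actin regulator Mena, followed with 7, 2 and 5 clusters. Here replicate 2 was lowest, the opposite of CTNND1. EPB41L2, EPB41 and EPB41L1 encode related membrane skeleton proteins, of which that of EPB41 links spectrin to actin. EPB41L2 held 2, 6 and 2 clusters, EPB41 held 2, 4 and 3, and EPB41L1 held 1 in each replicate. MAP3K7, the kinase TAK1 of inflammatory and TGF-beta signalling, held 3, 4 and 2 clusters. ECT2, which is needed for cytokinesis, held 2, 1 and 1. CLSTN1 encodes calsyntenin-1, a membrane protein that links cargo to kinesin, and held 0, 2 and 3. Ordered by total (CTNND1, ENAH, EPB41L2, EPB41 and MAP3K7, CLSTN1, ECT2, EPB41L1), the ranges of neighbouring genes over the 3 replicates overlapped or met. Genes further apart in the order need not overlap: EPB41L1, with 1 cluster in each replicate, lay below every replicate of EPB41, MAP3K7, EPB41L2, CTNND1 and ENAH. The median over the 9904 gene names with a cluster was 3 clusters in total, and 56.2% of these names reached 3. All 8 target genes with a cluster did so. Genes without a cluster, such as TSC2, are not in this count.

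**Figure D1:**
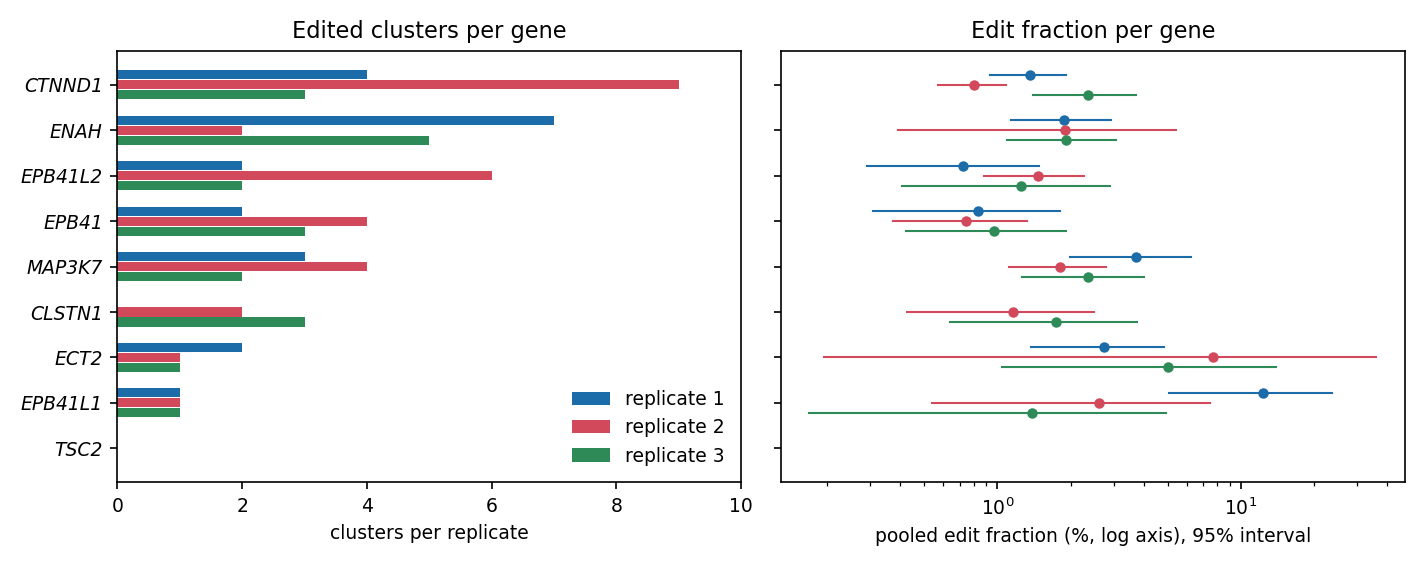
Left, number of clusters in each gene and replicate (bars). Right, pooled edit fraction of each gene and replicate (points, log axis) with its 95% Clopper-Pearson interval (lines); TSC2 has no cluster, and CLSTN1 none in replicate 1. CTNND1 reaches 9 clusters in replicate 2, ENAH 7 in replicate 1, and the intervals of ECT2 and EPB41L1 are the widest.

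All 70 clusters were annotated as exonic. Intronic clusters were rare throughout, at 2.19%, 2.39% and 1.78% of all clusters in replicates 1, 2 and 3. The difference from the clusters of all other genes was -2.12 ± 0.314 percentage points (SD, n = 3). This SD is the spread of the other genes alone, since the target genes gave 0% in each replicate. The exact sign-flip permutation p of the difference was 0.25 (two-sided), the smallest that 3 replicates can give. With 20 to 29 clusters per replicate, an intronic share of that size was not detectable.

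Within the exons, most clusters lay in the 3'-most labelled exon, as did most clusters of all genes. Exons are numbered along the chromosome: in all 3718 neighbouring pairs of numbered exons on the plus strand and 3572 on the minus strand, the number rose with the coordinate. Exon 0 of a minus-strand gene is therefore its 3'-most exon. ENAH, MAP3K7, EPB41L2 and CLSTN1 lie on the minus strand, and 33 of their 38 clusters were in exon 0. By replicate these were 12 of 12, 11 of 14 and 10 of 12, or 100% (Wilson 95% interval 75.8% to 100%), 78.6% (52.4% to 92.4%) and 83.3% (55.2% to 95.3%). For all exonic clusters on the minus strand the share in exon 0 was 63.4%, 58.7% and 60.3%. Each replicate's share was above that of all genes, but the interval of replicates 2 and 3 includes it.

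On the plus strand the number of the last exon is not given by the clusters, so the highest exon number seen in the gene was used. CTNND1 had 15 of 16 clusters in its exon 53, EPB41 all 9 in exon 48, EPB41L1 2 of 3 in exon 75 and ECT2 2 of 4 in exon 56. By this definition each gene has at least 1 cluster in that exon. By replicate, 8 of 9, 15 of 15 and 5 of 8 clusters of these 4 genes lay in it, against 74.4%, 70.2% and 71.3% of clusters by the same count over all plus-strand genes with at least 3 clusters. The target genes were above that share in replicates 1 and 2 and below it in replicate 3, with 62.5% (Wilson 95% interval 30.6% to 86.3%). Over both strands, 61 clusters lay in the 3'-most labelled exon and 9 elsewhere. The latter were single clusters of 1 replicate each. They lay in exon 22 of ENAH, exon 67 of EPB41L1, exon 46 of EPB41L2, exon 29 of CTNND1, exons 18 and 22 of MAP3K7, exons 6 and 31 of ECT2 and exon 24 of CLSTN1. The cluster in exon 22 of ENAH (chr1:225706822-225706911, minus strand, replicate 3) had 6 edited bases on 4 of 43 reads and an edit fraction of 3.85%, the highest of the ENAH clusters in that replicate. The exon annotation does not show which of these exons are alternative.

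Clusters were strung along the 3'-most exon with gaps between them. In CTNND1, 10 places of editing spread over 2085 bases with a median gap of 120 bases. In ENAH, 13 places spread over 8010 bases, with 1 cluster of replicate 3 at 5220 bases from the nearest other. EPB41L2 had 8 places within 1095 bases, EPB41 had 8 within 2715 bases, and MAP3K7 had 5 within 2235 bases.

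**Figure D2:**
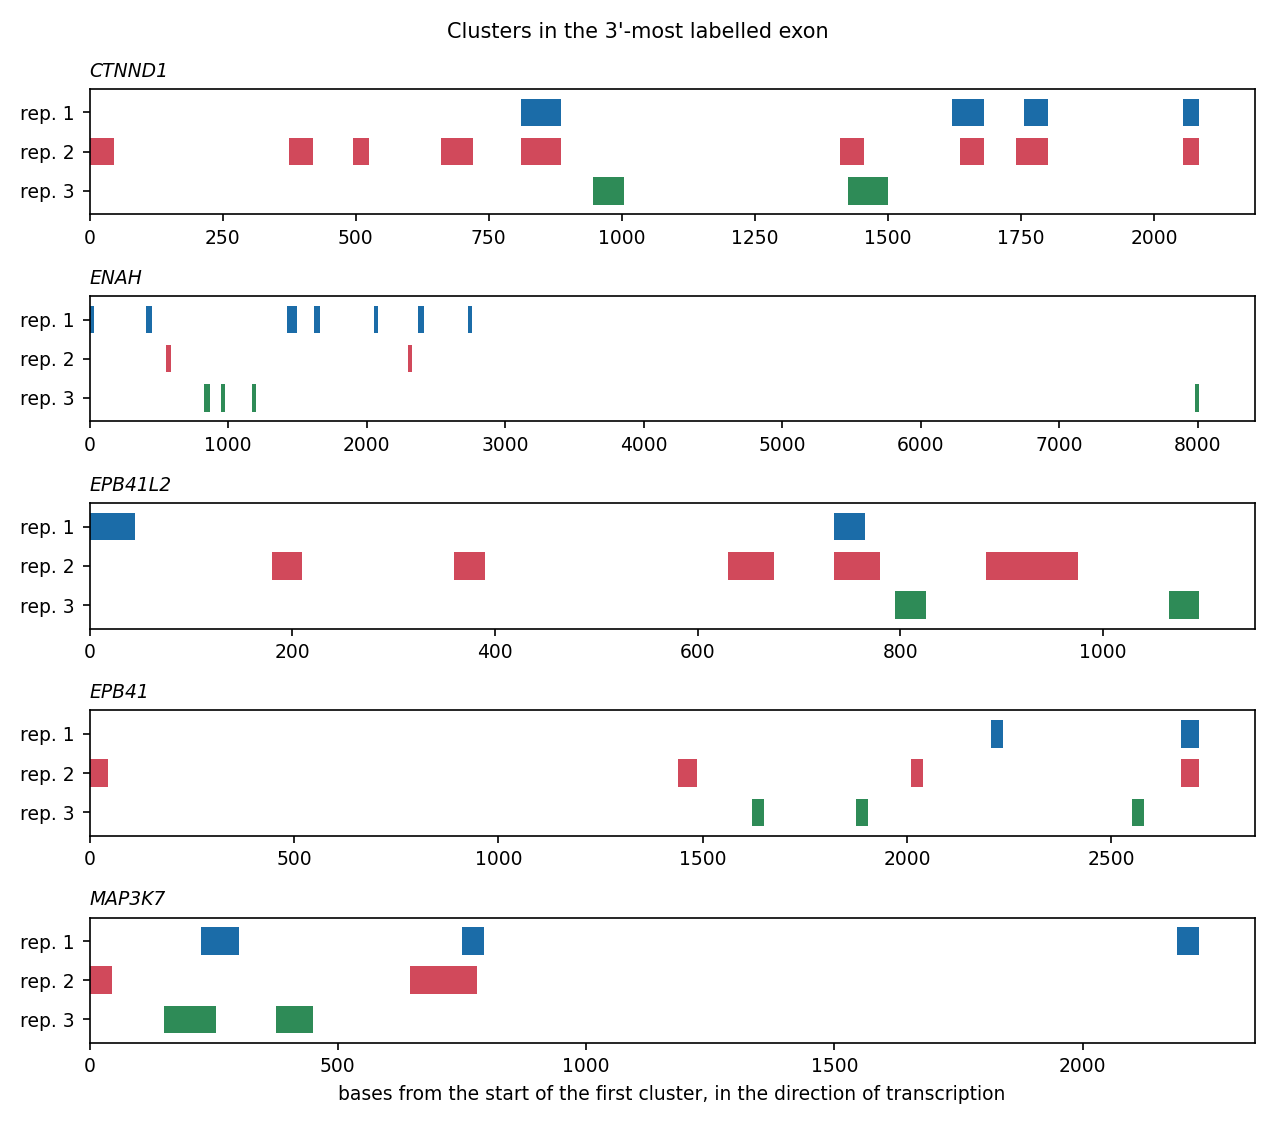
Clusters (boxes, to scale) in the 3'-most labelled exon of the 5 genes with such clusters in each replicate, with distance in bases from the start of the first cluster in the direction of transcription; rows are replicates and each gene has its own scale. Clusters of replicates 1 and 2 coincide in 4 places in CTNND1, while the ENAH clusters of different replicates nowhere overlap.

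Overlapping clusters of different replicates were merged into 59 places of editing, called loci below, each of which the files place on hg19, the build named in the submitters' processing notes. None of the 59 lay in all 3 replicates, 11 lay in 2 and 48 in 1. Counted as clusters, 0 of 21, 0 of 29 and 0 of 20 were found in all 3 replicates, against 10.6%, 9.86% and 13.1% of all clusters. The Wilson intervals of these shares of 0 reach 15.5%, 11.7% and 16.1%, so none of them excludes the share of all clusters. The difference from all other genes was -11.2 ± 1.71 percentage points (SD, n = 3), with an exact sign-flip permutation p of 0.25. This SD is the spread of the other genes alone, since the target genes gave 0% in each replicate. A place found in all 3 replicates can count in each of them, so the 3 values are not independent. Neither the p nor the 3 intervals can be read as 3 separate results. When other clusters were weighted to the same depth classes as the target genes, 9.38%, 9.27% and 10.7% of them were found in all 3 replicates. The class of depth 50 and over has no upper bound, while no target-gene cluster was deeper than 69.1, so depth was matched only loosely there. Counted among clusters of at least that depth alone, 20.3%, 19.9% and 29.5% of other clusters were found in all 3 replicates. Weighted to the same classes of edited reads, a choice made after the data were seen, the shares were 6.99%, 5.27% and 7.95%. In the numbers of clusters held by the target genes, the weighting by edited reads equals 1.47, 1.53 and 1.59 clusters. With an overlap of at least 50% required, 4.91%, 4.75% and 6.27% of other clusters were found in all 3 replicates. In at least 1 further replicate, 8, 10 and 4 of the clusters were found, or 38.1%, 34.5% and 20%. The clusters of all other genes gave 31.2%, 30.3% and 35.7% by the same count, above the target genes in replicate 3 only.

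CTNND1 held 5 of the 11 loci found in 2 replicates. The locus with the most edited reads of the whole list lay at chr11:57585435-57585494 on the plus strand. In replicate 1 it had 19 edited bases on 8 of 86 reads, an edit fraction of 2.13% (Clopper-Pearson 95% interval 1.29% to 3.31%). In replicate 2 it had 5 edited bases on 2 of 67 reads, or 0.759% (0.247% to 1.76%). The intervals of the replicates overlap, and replicate 3 had no cluster there. The locus at chr11:57584625-57584699 had the same borders in replicates 1 and 2, with edit fractions of 1.59% (0.640% to 3.24%) and 1.22% (0.450% to 2.64%). The locus at chr11:57585555-57585614 had edit fractions of 0.489% (0.159% to 1.14%) and 0.689% (0.315% to 1.30%) in replicates 1 and 2, at mean read depths of 67.0 and 69.1. At chr11:57585225-57585314 the clusters came from replicates 2 and 3, with 0.602% (0.164% to 1.54%) and 1.44% (0.469% to 3.33%). At chr11:57585870-57585899 a single edited read in replicates 1 and 2 each gave edit fractions of 14.3% (0.361% to 57.9%) and 10.0% (0.253% to 44.5%), from 7 and 10 covered C bases. The highest edit fractions of the gene thus rested on a single edited read each.

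The other 6 loci were in 4 genes. In CLSTN1, chr1:9790180-9790224 on the minus strand had 5 edited reads of 63 in replicate 2 and 3 of 43 in replicate 3, with edit fractions of 0.994% (0.324% to 2.30%) and 1.66% (0.343% to 4.77%). A second locus of CLSTN1 at chr1:9790060-9790089 rested on 1 edited read in each of these replicates. In MAP3K7, chr6:91226008-91226157 on the minus strand was edited at 4.86% (1.98% to 9.76%) in replicate 1 and 4.26% (1.58% to 9.03%) in replicate 3, with 2 edited reads each. The MAP3K7 locus at chr6:91225513-91225662 had 6.98% (1.46% to 19.1%) in replicate 1 and 2.43% (1.12% to 4.55%) in replicate 2. EPB41 shared chr1:29446407-29446451 on the plus strand, with 0.709% (0.146% to 2.06%) and 1.21% (0.147% to 4.31%) in replicates 1 and 2. EPB41L2 shared chr6:131160923-131160967 on the minus strand, with 1.06% (0.128% to 3.77%) and 0.826% (0.171% to 2.40%) in replicates 1 and 2. In each of these 6 loci and of the 5 in CTNND1, the intervals of the 2 replicates overlap. With few edited bases in most of them the intervals are wide, so their overlap does not show that the replicates were edited alike. ENAH, EPB41L1 and ECT2 shared no locus between replicates. Their loci with the most edited reads were chr1:225684603-225684647 in ENAH (4 edited reads of 24, 3.54%, replicate 1; a locus in exon 22 also had 4), chr20:34818125-34818199 in EPB41L1 (3 of 10, 12.3%, replicate 1) and chr3:172538554-172538688 in ECT2 (2 of 34, 3.36%, replicate 1).

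Recurrence was also counted with a gap allowed between clusters, and by exon. These counts were added after the values were seen. Each replicate's share depends on the clusters of the other replicates, so the SDs and p-values below do not come from independent values. With a gap of up to 100 bases, 9 of the 70 clusters had neighbours in both other replicates, or 13.2% ± 2.51 (SD, n = 3) per replicate against 21.0% ± 2.81 for all other genes. At up to 200 bases the shares were 29.4% ± 5.36 and 27.2% ± 3.17, and at up to 500 bases 48.2% ± 4.70 and 36.9% ± 3.69. At 200 bases the difference was -2.18, 9.74 and -0.757 percentage points in replicates 1, 2 and 3, so the positive mean came from replicate 2 alone. The exact sign-flip permutation p of the difference was 1 at 200 bases and 0.25 at 500 bases. By exon, 5 of 17 edited exons of the target genes held clusters in all 3 replicates (ENAH exon 0, EPB41 exon 48, EPB41L2 exon 0, CTNND1 exon 53 and MAP3K7 exon 0). Among the exons of other genes, 2726 of 15724, or 17.3%, did so. These 5 exons had 7 to 15 clusters each, and of the 1173 exons of other genes with at least 7 clusters, 95.5% were edited in all 3 replicates.

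**Figure D3:**
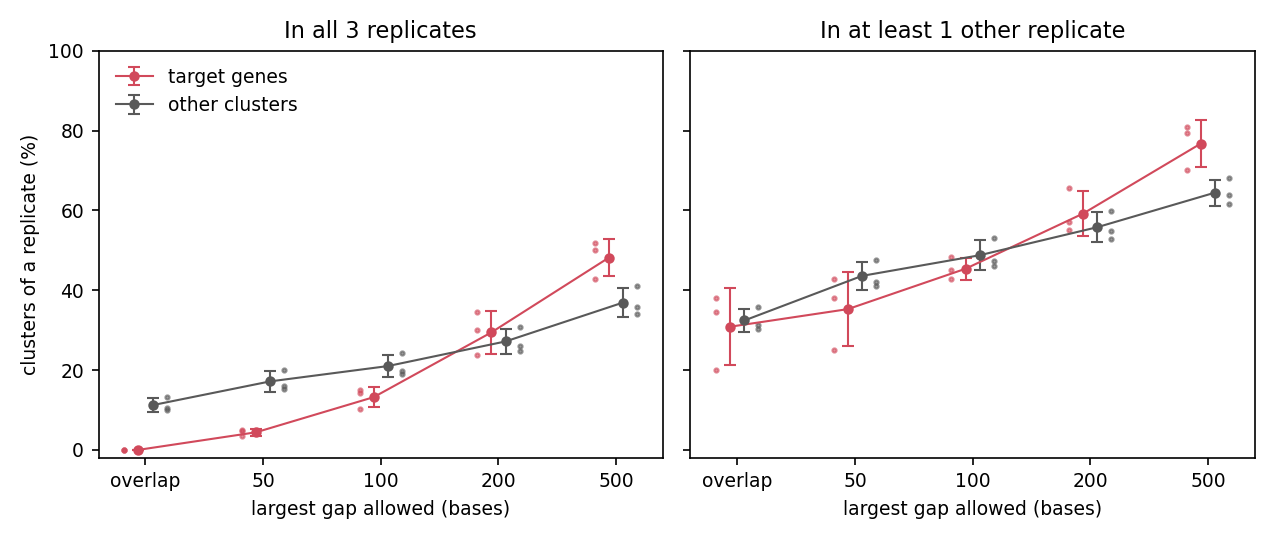
Share of a replicate's clusters with a cluster in all 3 replicates (left) or in at least 1 other replicate (right), by the largest gap allowed between clusters (evenly spaced categories). Large points are means and bars SDs of 3 replicates, small points the replicates; the share of target-gene clusters in all 3 replicates rises from 0% on overlap to 48.2% at a gap of up to 500 bases, that of other clusters from 11.2% to 36.9%.

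Few reads stood behind each cluster. Of the 70 clusters, 18 had 1 edited read and 6 had at least 4, and the maximum was 8. At least 4 edited reads were seen in 8.73% ± 4.91 of clusters per replicate in the target genes and 20.6% ± 1.46 in all other genes (SD, n = 3). Of the other clusters, 5.47% ± 0.302 had over 8 edited reads, and 73.6% ± 4.05 of those were found in all 3 replicates. The limit of 8 is the maximum of the target genes, so none of their clusters could lie above it. Among the other clusters with at most 8 edited reads, 7.59% ± 1.77 were found in all 3. Scores of 0.99 or more were held by 52.4%, 41.4% and 55.0% of the clusters of the target genes in replicates 1, 2 and 3, against 60.8%, 60.1% and 61.2% of all clusters. This score of the authors' cluster caller runs from 0 to 1. The paper describes it as placing a cluster's edit fraction in a distribution built on the mean edit fraction of the called clusters. It did not follow edit fraction alone. A CTNND1 cluster of replicate 1 with 1 edited base and an edit fraction of 14.3% scored 0.987. Another of replicate 2 with 8 edited bases and an edit fraction of 0.639% scored 0.998. The share of scores of at least 0.99 differed from that of other genes by -11.1 ± 6.72 percentage points (exact sign-flip permutation p = 0.25), lower in 3 of 3 replicates.

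The median of the mean read depth was 21.1, 34.4 and 26.4 in the target genes and 25.1, 24.7 and 21.0 in other genes. The target genes were lower in replicate 1 and higher in replicates 2 and 3, so the direction was not the same (exact sign-flip permutation p = 0.50). No cluster of the target genes was deeper than 69.1, while the deepest clusters of other genes reached 8012, 8001 and 7169, and by means over clusters the difference was -44.5 ± 4.56 (exact sign-flip permutation p = 0.25). C bases made up a median of 15.6%, 16.7% and 19.0% of the cluster length, lower than the 17.8%, 18.7% and 20% of other genes in 3 of 3 replicates (difference -1.72 ± 0.678 percentage points, exact sign-flip permutation p = 0.25). At a depth of at least 50 this difference turned to 3.17 ± 6.56, over 4 clusters per replicate. Clusters were 45, 45 and 30 bases long by median and at most 135 bases.

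Pooled over clusters, the edit fraction of the target genes was 1.62%, 1.06% and 1.81% in replicates 1, 2 and 3, and that of all other clusters 0.939%, 0.934% and 0.996%. The difference was 0.540 ± 0.363 percentage points, higher in 3 of 3 replicates (exact sign-flip permutation p = 0.25). The pooled value of other genes is weighted by their deepest clusters, and edit fraction and depth moved in opposite directions across clusters, as the plot of edit fraction against depth shows. By medians over clusters, the difference was -0.0665 ± 0.341 percentage points. Each cluster of the target genes was also set against the median of exonic clusters of other genes in its own depth class. The median difference was 0.331, -0.109 and -0.173 percentage points, with a mean of 0.0164 ± 0.275 and an exact sign-flip permutation p of 1. Above their class median were 15 of 21, 11 of 29 and 8 of 20 clusters, or 34 of 70. The class of depth 50 and over has no upper bound, so its 12 target-gene clusters were set against deeper ones too. In that class depth was matched only loosely, and the median difference was 0.252, -0.0960 and 0.230 percentage points in replicates 1, 2 and 3. At matched depth, replicate 1 pointed one way and replicates 2 and 3 the other, and a difference beyond the spread between replicates was not seen.

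**Figure D4:**
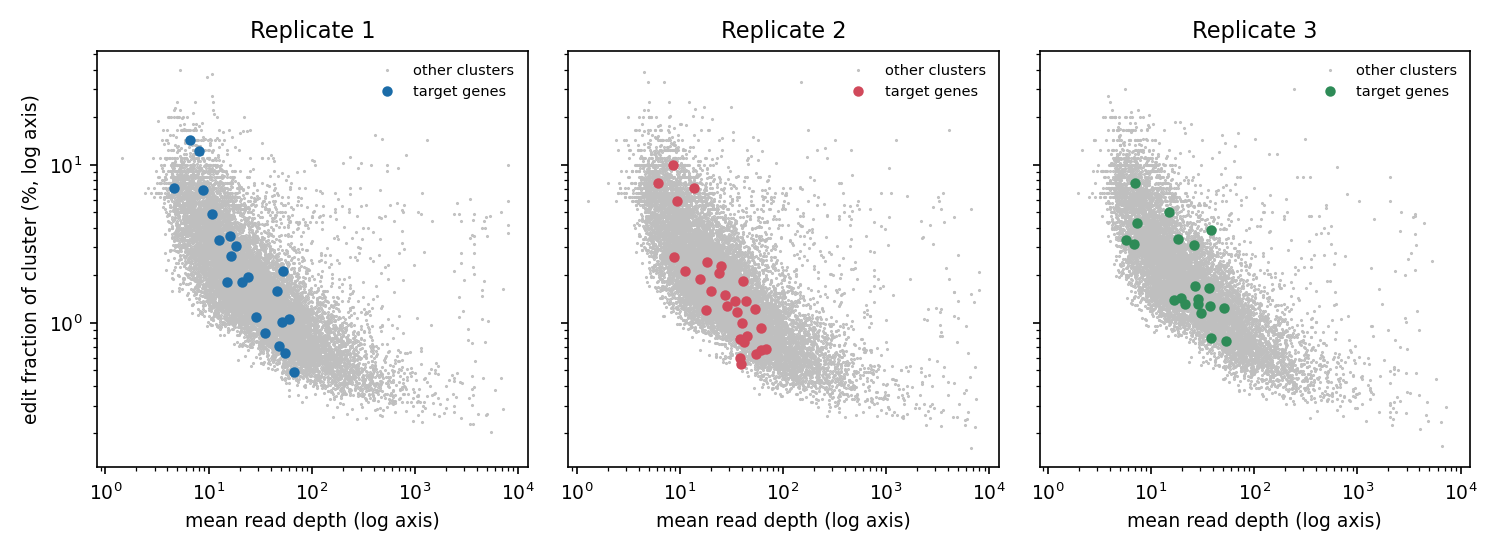
Edit fraction against mean read depth of each cluster in replicates 1 to 3 (both axes log), with clusters of the target genes in colour and all other clusters in grey. The target-gene clusters lie within the grey cloud, at depths of 4.58 to 69.1, and fall with depth as it does.

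Among the genes, ordered by pooled edit fraction, EPB41L1 came first with 12.3%, 2.61% and 1.39% in replicates 1, 2 and 3, or 5.43% ± 5.97 (SD, n = 3). Its first value rests on 7 edited bases of 57 covered C bases, and the mean of this gene is set by replicate 1. ECT2 had 2.73%, 7.69% and 5.00%, or 5.14% ± 2.48, of which the second comes from 1 edited base of 13. MAP3K7 had 3.69%, 1.81% and 2.36%, or 2.62% ± 0.967. ENAH had 1.88%, 1.89% and 1.90%, or 1.89% ± 0.0123. That narrow spread is far below the counting error of the values, whose 95% intervals were 1.14% to 2.92%, 0.391% to 5.41% and 1.09% to 3.07%. CTNND1 had 1.36%, 0.798% and 2.36%, or 1.51% ± 0.793. Its intervals of 0.571% to 1.09% in replicate 2 and 1.41% to 3.71% in replicate 3 do not overlap. They treat edited bases as independent, but the 40 and 18 edited bases lay on 22 and 8 edited reads. Both intervals are therefore too narrow. The median cluster depth of CTNND1 was 38.5 in replicate 2 and 19.5 in replicate 3, and the part of depth in this difference was not tested. CLSTN1 had 1.15% and 1.73% in replicates 2 and 3, or 1.44% ± 0.410 (SD, n = 2). EPB41L2 had 0.725%, 1.46% and 1.25%, or 1.15% ± 0.379. EPB41 was lowest with 0.836%, 0.743% and 0.972%, or 0.850% ± 0.115. The ranges of neighbours in this order overlapped in every case. The order ran against depth, from a median depth of 8.72 in EPB41L1 to 47.7 in EPB41, with a Spearman rank correlation of -0.881 across the 8 genes, given as a description. The authors' threshold for a window was itself set by depth class. At matched depth, the clusters above their class median were 1 of 3 in EPB41L1, 4 of 4 in ECT2, 5 of 9 in MAP3K7, 8 of 14 in ENAH, 7 of 16 in CTNND1, 3 of 5 in CLSTN1, 3 of 10 in EPB41L2 and 3 of 9 in EPB41. In EPB41L1, first by pooled edit fraction, the differences from the class median ran from -2.48 to 7.40 percentage points. The highest was that of its cluster in replicate 1, edited at 12.3%. The part of depth in the order of the genes was not tested.

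Several edits on the same read were common. In 40 of the 70 clusters, or 57.4% ± 3.94 per replicate against 63.6% ± 1.81 in other genes (SD, n = 3), there were more edited bases than edited reads. An edited read carried 1.72 ± 0.0238 edited bases in the target genes and 1.64 ± 0.0412 in other genes. Over the 3 replicates the ratio was 3.00 in ECT2, 2.71 in MAP3K7 and 1.88 in CTNND1, and 1.00 in CLSTN1, where each of 12 edited reads had 1 edited base. The ECT2 locus at chr3:172538554-172538688 had 8 edited bases on 2 reads. The ratio of ECT2 rests on 5 edited reads and that of MAP3K7 on 17.

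Genes related to the 9 were counted in the same way. Apart from RBFOX2 itself, which the construct carries and which held 17, 16 and 16 clusters, 22 of 33 listed genes had clusters, 116 in all. Of these 116, 17 were found in all 3 replicates, against 10.6%, 9.86% and 13.1% of all clusters in replicates 1, 2 and 3. A place found in all 3 replicates can add clusters from more than 1 of them, so the counts below can rest on few places. Whether they differ from the share of all clusters was not tested. RBFOX1 and RBFOX3 had none. Among 13 further genes with RBFOX-regulated exons, 9 held 48 clusters, of which 10 were found in all 3 replicates. MPRIP, whose product binds myosin phosphatase, held 3, 2 and 2 clusters, and 6 of these 7 were found in all 3 replicates. Its edit fractions were 0.602%, 0.946% and 1.14%. The transcription factor gene MEF2A held 8, 7 and 3 clusters, 3 of them found in all 3 replicates, and MYH10, which encodes a non-muscle myosin heavy chain, held 3, 4 and 1. FGFR2, CACNA1C, CALCA and INF2 had none, like TSC2.

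The 4 listed paralogs of EPB41 (EPB41L3, EPB41L4A, EPB41L4B and EPB41L5) held 13 clusters, none found in all 3 replicates. These are too few clusters to set apart from the share of all clusters. Of the actin regulators related to ENAH, VASP held 3, 2 and 2 clusters with 3 found in all replicates, and EVL held 2, 0 and 2. The calsyntenin genes CLSTN2 and CLSTN3 had none, and of the p120 catenin relatives only PKP4 had any (0, 3 and 1). TSC1, the partner of TSC2, held 1 cluster in replicate 1, and TBC1D7, the third subunit of their complex, 3, 0 and 1. TAB2, an adaptor of TAK1, held 8, 5 and 8 clusters, more than MAP3K7 in each replicate, at edit fractions of 1.18%, 1.26% and 1.93%. RACGAP1 and KIF23, which recruit ECT2 to the midzone of dividing cells, held 5 clusters each over the 3 replicates. The genes nearest to CTNND1 by clusters, edited bases and covered C bases in the 3 replicates (9 values, Euclidean distance on the log2 scale after adding 1) were VPS35 at a distance of 1.03, STAU1 at 1.12 and ATPIF1 at 1.21. VPS35 held 4, 8 and 3 clusters, STAU1 6, 9 and 2, and ATPIF1 5, 6 and 3.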

How the data were processed

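TruSeq stranded libraries of 3 replicates, for which the labels name polyA RNA and the protocol mRNA or total RNA, were processed separately by the authors. STAR and hg19 are named in the submitters' processing notes. SAILOR called C-to-U sites without common SNPs, and FLARE tested windows of 30 bases, kept those past an adjusted p-value threshold of 0.1, merged them within 15 bases and scored the clusters. The authors' counts per cluster (reads, edited reads, C bases covered, bases edited) are unscaled. The edit fraction deposited by the authors, recomputed from the counts, and their score lie between 0 and 1. The deposited mean depth is a coverage signal not scaled to library size. Clusters held 1637592, 1731304 and 1104249 reads, which are not the depths of the libraries.

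Scripts ran in Python 3.11.15 with SciPy 1.17.1, NumPy 2.4.6, matplotlib 3.10.9 and pandas 2.3.3. Members and related genes were matched by the gene names of the clusters, and a cluster naming several genes counted for each. Replicates were compared by strand-specific overlap of 1 base or more. Differences between target genes and all other clusters were tested with two-sided exact sign-flip permutation tests over the 3 replicates, which cannot give a p under 0.25. Depth classes were bounded at 10, 20, 30, 40 and 50. Intervals are 95% and cover counting error only, since reads are not independent molecules and bases of 1 read not independent of each other. Text names all 9 genes, their loci found in 2 or 3 replicates, the locus of each gene with the most edited reads, listed related genes and the 3 genes nearest to CTNND1. Single clusters outside the 3'-most exon were named after their values were seen. The share of plus-strand clusters in the highest exon number of a gene was counted over genes with at least 3 clusters, using clusters that name 1 exon, and was added after the data were seen. Members, lists and tests were chosen with earlier results of these data known. Alternatives were leaving out clusters scored under 0.95 or under 0.99, under a depth of 50 or with under 2 edited reads, means, deciles of depth, a log2 ratio, an overlap of 50%, weighting by depth, and leaving out each replicate. Weighting by edited reads and gaps of 50 to 500 bases were added after the data were seen. The overlap search, the depth matching and the permutation test were tested on simulated data. Start positions are counted from 1. Sequences of the clusters were not analysed here, because a genome of build hg19 was not used here.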

Additional observations from a re-analysis of the deposited data

How the results depend on the processing

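Of 88 values of 11 results under alternatives, 33 left out 1 replicate, and of the other 55, 39 kept their direction or stayed near the reported value. No difference could pass a threshold of 0.05, since the exact sign-flip permutation p cannot go under 0.25 with 3 replicates, so none of this shows stability. A minimum score of 0.99 left 11.3 clusters per replicate, 0.139% of all clusters and 29 loci, and a minimum depth of 50 left 4 clusters, 0.103% and 11 loci. The difference in edit fraction at matched depth, 0.0164 percentage points, became -0.00525 at a minimum score of 0.95 and -0.0696 at 0.99. The pooled difference of 0.540 became -0.0665 with medians over clusters. The difference in median depth of 3.67 became -0.0791 with at least 2 edited reads and -44.5 with means. The difference in C content turned from -1.72 to 3.17 percentage points at a minimum depth of 50. That in median length, -5 bases, became 5 at a minimum score of 0.99 and 0 at a minimum depth of 50. That in the share found in all 3 replicates, -11.2 percentage points, became 2.27 and 11.3 with gaps of up to 200 and 500 bases, added after the data were seen. The causes of these changes were not tested.

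Across the values that each left out one replicate, the clusters per replicate ran from 20.5 to 25, their share from 0.161% to 0.183%, and the loci from 40 to 46. The differences ran from 0.404 to 0.747 percentage points for the pooled edit fraction, from -0.141 (without replicate 1) to 0.111 at matched depth, from -2.29 to -1.99 for introns, and from -13.6 to -7.29 for scores of at least 0.99. They ran from 0.657 (without replicate 2) to 7.51 (without replicate 1) for median depth, from -7.5 to 0 bases for length and from -2.11 to -1.48 for C content. With 2 replicates, the share found in all of them is that found in both, and its difference ran from -16.5 (without replicate 2) to 6.51 (without replicate 3). No cluster of the target genes had over 8 edited reads, which limits the precision of each value.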
